A study of Mus musculus with 9 samples.

Results

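The genes described here are 9 components of the Sonic hedgehog pathway: the receptor Ptch1, the coreceptors Boc and Cdon, the ligand-binding inhibitor Hhip, the signal transducer Smo, the cytoplasmic inhibitor Sufu, and the transcription factors Gli1, Gli2 and Gli3. They were taken by symbol from a table of 55704 genes, all 9 were found, and 8 of them averaged 0.1 or more in FPKM (fragments scaled by transcript length and library size) and were tested among 20207 genes. Gli1 was below that limit. RNA was measured in 9 libraries of neural stem cells (NSCs) grown from the subventricular zone, a germinal layer beside the lateral ventricle, of adult C57BL/6 mice. The animals were 8 to 9 weeks old, and cells of 2 female and 2 male mice were pooled in an isolation. bFGF/EGF-treated NSCs were adherent, dividing cultures collected at day 0, whereas bFGF/BMP4-treated NSCs had BMP4 in place of EGF and BMP4-treated NSCs had BMP4 in place of both growth factors, both collected at day 6. All cells had been passaged in suspension with bFGF and EGF and were then plated on poly-L-ornithine and laminin in B27-supplemented medium. The paper's methods list B27 without vitamin A for the bFGF/EGF medium, and B27 with no such remark for both BMP4-containing media. Each growth factor was given at 20 ng/ml, and no hedgehog ligand or Smo agonist is among the listed additives. There were 3 libraries a group, named as biological replicates. Whether they came from separate isolations is not stated, so p-values measure only the spread between these libraries.

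Hedgehog ligands bind Ptch1, which otherwise holds Smo inactive. Released Smo acts in the primary cilium, where Gli proteins escape Sufu and proteolytic processing and become activators; without ligand, Gli3 in particular is cleaved to a repressor. Gli1, Ptch1 and Hhip are commonly used as transcriptional readouts of the pathway, and in the adult subventricular zone hedgehog signalling is known for its part in ventral stem cells.

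The libraries held 15892849 to 17222564 fragments on genes, as rebuilt from the steps of the FPKM values. Of 6 stem cell markers, Sox2 was at 167 ± 36, 137 ± 12 and 137 ± 13 FPKM (SD, n = 3) in bFGF/EGF, bFGF/BMP4 and BMP4, and Slc1a3 was at 73.6 ± 8.3, 130 ± 19 and 113 ± 8.5. Nes fell from 151 ± 6.4 to 3.55 ± 0.52 and 15.8 ± 5.0 FPKM. In bFGF/BMP4, Fabp7, Prom1 and Vim also fell relative to bFGF/EGF, so that 4 of the 6 were lower. Prom1 was at 0.660 ± 0.15, 0.151 ± 0.036 and 2.49 ± 1.1 FPKM in the 3 groups, and Vim at 677 ± 76, 167 ± 18 and 892 ± 129. By the rule given below, 1 of the 6 was higher and 1 lower in BMP4 than in bFGF/EGF. Compared with bFGF/BMP4, 3 were higher in BMP4 and 0 lower. The sum of the 6, carried by Fabp7 and Vim, was 1673 to 1769, 654 to 758 and 1408 to 1872. A gene was called where limma's adjusted p (Benjamini-Hochberg over the 20207 genes) was at most 0.05 and the fold change at least 2. All log2 fold changes are differences on the log2(FPKM + 0.1) scale, which understates the change of low genes. Of the 8 tested members, 3 were called in bFGF/BMP4 against bFGF/EGF, where 30.6% of all tested genes were called: 2 rose, as did 16.5% of all genes, and 1 fell, as did 14.1%. In BMP4 against bFGF/EGF, 3 were called against 36.6% of all genes, with 2 higher (21.3% of all genes) and 1 lower (15.4%). In BMP4 against bFGF/BMP4, 2 were called against 13.5% of all genes, none higher (8.41%) and 2 lower (5.14%). On the adjusted p alone, with no fold threshold, 6, 6 and 3 members passed, beside 48.6%, 54.9% and 21.1% of all genes. The members' median log2 fold changes in these comparisons were 0.69, 0.26 and -0.41, beside 0.06, 0.10 and 0.00 for all tested genes. Both comparisons with bFGF/EGF share its libraries, and in them the medium and the 6 days of culture cannot be told apart. In such bulk samples, fewer cells of a type and less RNA per cell cannot be told apart either.

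**Figure D1:**
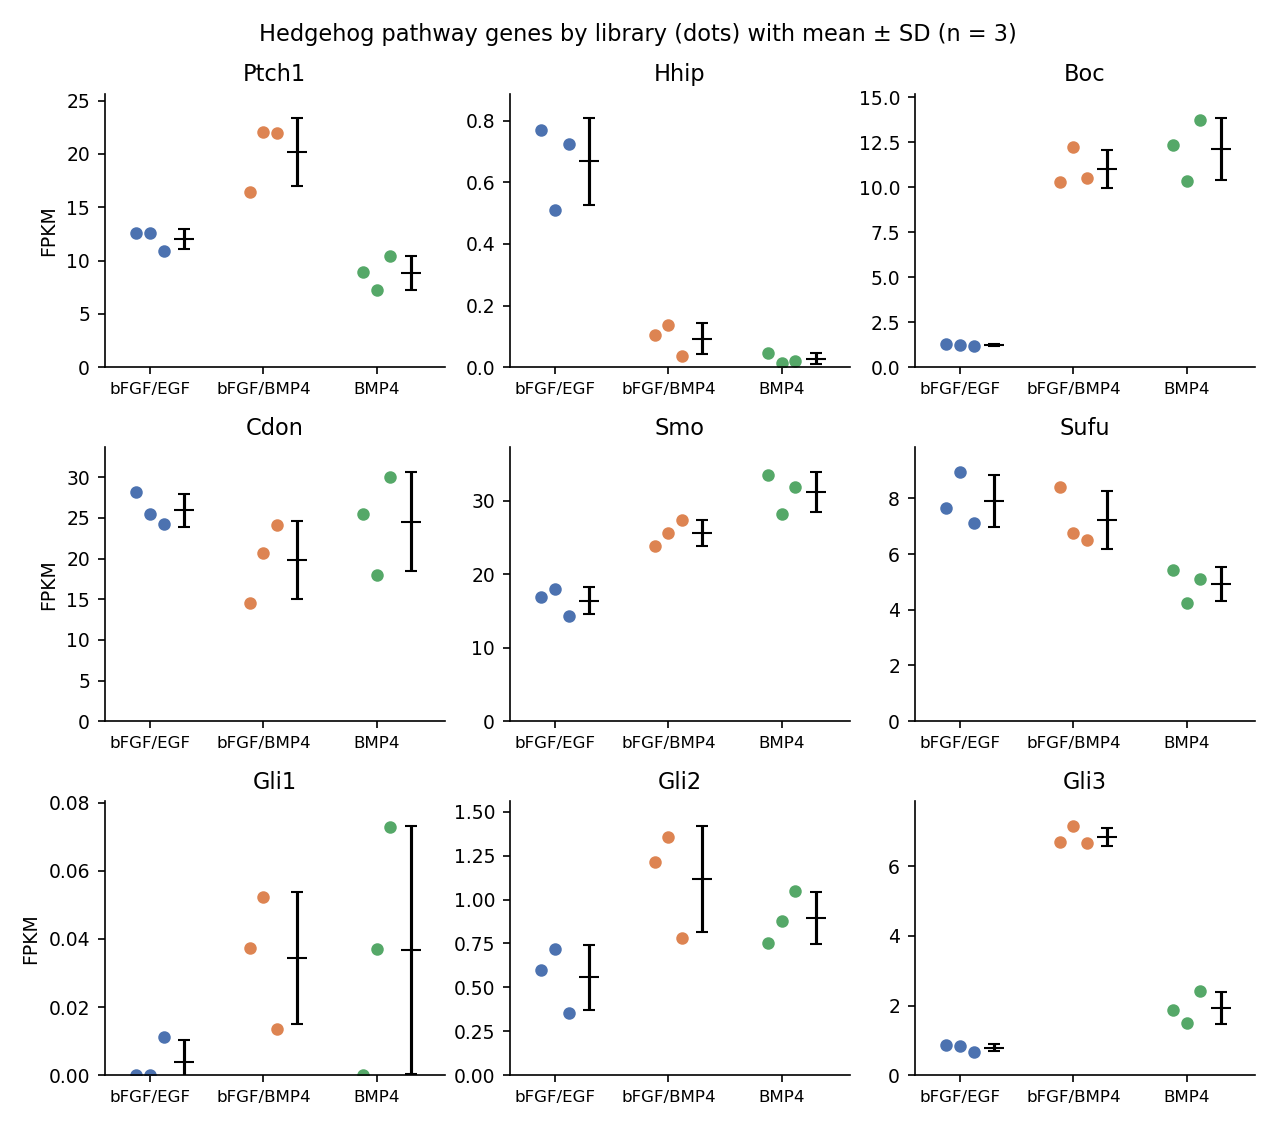
FPKM of the 9 genes (vertical axis of each panel, starting at 0) in the 3 media, with a dot for each library and the mean ± SD (n = 3); bars reaching below 0 end at the axis. Boc was high in both BMP4-containing media, Gli3 stood highest in bFGF/BMP4, Hhip was near 0 in both, and Gli1 stayed under 0.1 FPKM in all 9 libraries.

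Ptch1, the receptor that binds ligand and restrains Smo (ENSMUSG00000021466, chr13:63656142-63721412, minus strand, GRCm39), was at 12.6, 12.6 and 10.9 FPKM in bFGF/EGF, 16.5, 22.0 and 21.9 in bFGF/BMP4, and 8.92, 7.22 and 10.4 in BMP4. The 3 groups did not overlap, with bFGF/BMP4 highest and BMP4 lowest. Libraries of the compared groups were apart in this way for 57.7%, 60.4% and 38.7% of all tested genes in the comparisons of bFGF/BMP4 with bFGF/EGF, BMP4 with bFGF/EGF, and BMP4 with bFGF/BMP4. Ptch1 fell in BMP4 relative to bFGF/BMP4, by 1.18 on the log2 scale (SE 0.17, limma adjusted p = 6.7e-04). Against bFGF/EGF, its difference was 0.73 (SE 0.17, adjusted p = 0.0046) in bFGF/BMP4 and -0.45 (SE 0.17, adjusted p = 0.041) in BMP4, both short of a 2-fold change. Under other settings the adjusted p of the latter ran from 0.0098 with limma-voom on rebuilt fragments to 0.13 without BMP4 replicate 2. It was above 0.05 in several, among them no filter on low values (0.059) and a fit of only the 2 groups compared (0.053).

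Hhip, a membrane protein that binds hedgehog ligands and keeps them from Ptch1 (ENSMUSG00000064325, chr8:80692480-80784658, minus strand, GRCm39), was the member that fell in both BMP4-containing media. Its level was 0.771, 0.509 and 0.723 FPKM in bFGF/EGF (73 to 119 fragments a library), 0.103, 0.136 and 0.0375 in bFGF/BMP4 (5 to 19 fragments), and 0.0475, 0.0136 and 0.0200 in BMP4 (2 to 7 fragments). All libraries of both BMP4-containing groups lay below those of bFGF/EGF, while the 2 BMP4-containing groups overlapped with each other. Hhip fell by 2.02 in bFGF/BMP4 (SE 0.36, limma adjusted p = 0.0011) and by 2.59 in BMP4 (SE 0.36, adjusted p = 1.8e-04). Between BMP4 and bFGF/BMP4 the difference was -0.57 (95% interval -1.38 to 0.24, adjusted p = 0.33), and it ran from -1.61 with limma-voom on rebuilt fragments to -0.09 with a pseudocount of 1. The size of the fall depended on the pseudocount: with a pseudocount of 1 the differences from bFGF/EGF were -0.61 and -0.70 and no longer reached 2-fold. Over the summed fragments of each group, bFGF/EGF was 7.21-fold above bFGF/BMP4 (exact 95% interval 5.16 to 10.3) and 24.9-fold above BMP4 (14.0 to 48.7). By the same measure, bFGF/BMP4 (39 fragments) was 3.45-fold above BMP4 (12 fragments, 1.77 to 7.23). These intervals cover counting error only, not the spread between libraries.

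As the pathway's readouts are transcribed through Gli proteins, the stretches of 250 bases before the annotated starts were searched for the Gli-binding sequence GACCACCCA on either strand. RefSeq (GRCm38.p6) gave such a stretch for 7 of the 9 genes, without Gli1 and Boc, and none of the 7 held the sequence, which occurs in 74 of 32851 promoters (0.225%). A sequence so rare would seldom be met in 7 stretches, and sites farther away were not searched. Its absence therefore does not bear on whether Gli proteins regulate these genes. The GC box GGGCGG, on either strand, was in 5 of the 7, against 32.7% of all promoters. The Hhip stretch is shown because Hhip is both a usual readout and the member that fell in both media. It lies at chr8:80058009-80058258 on the minus strand of GRCm38.p6, has 76.0% G and C with 28 CpG dinucleotides (all promoters, median 52.4% and 6), and its 2 GC boxes, read on the opposite strand, are in capitals.
Hhip: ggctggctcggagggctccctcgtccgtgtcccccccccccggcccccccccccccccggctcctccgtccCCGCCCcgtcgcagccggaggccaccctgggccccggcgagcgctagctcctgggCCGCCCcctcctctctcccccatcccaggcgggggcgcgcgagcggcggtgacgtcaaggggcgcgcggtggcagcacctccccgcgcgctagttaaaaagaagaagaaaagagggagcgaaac

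Boc and Cdon are related cell-surface coreceptors that bind hedgehog ligands together with Ptch1, and they differed in pattern. Boc (ENSMUSG00000022687, chr16:44305290-44379432, minus strand, GRCm39) was at 1.30, 1.22 and 1.16 FPKM in bFGF/EGF, 10.3, 12.2 and 10.5 in bFGF/BMP4, and 12.3, 10.3 and 13.7 in BMP4. Every library of both BMP4-containing media was far above all bFGF/EGF libraries, and the 2 BMP4-containing groups overlapped. Boc rose by 3.07 in bFGF/BMP4 (SE 0.14, limma adjusted p = 2.0e-07) and by 3.20 in BMP4 (SE 0.14, adjusted p = 1.2e-07), and the difference between those media was 0.13 (95% interval -0.18 to 0.45, adjusted p = 0.58).

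Cdon (ENSMUSG00000038119, chr9:35332424-35418948, plus strand, GRCm39) was at 28.2, 25.5 and 24.2 FPKM in bFGF/EGF, 14.6, 20.7 and 24.1 in bFGF/BMP4, and 25.5, 18.0 and 30.0 in BMP4. The bFGF/BMP4 libraries lay below those of bFGF/EGF by a narrow margin, and the BMP4 libraries spread over both groups. Cdon passed no test: its log2 differences were -0.42 (SE 0.22, limma adjusted p = 0.14), -0.11 (SE 0.22, adjusted p = 0.69) and, for BMP4 against bFGF/BMP4, 0.31 (95% interval -0.18 to 0.79, adjusted p = 0.39).

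Gas1, another ligand-binding coreceptor that is not among the 9 genes, was highest in bFGF/EGF, at 43.6 ± 9.2 FPKM (SD, n = 3), lowest in bFGF/BMP4, at 12.7 ± 1.0, and at 27.5 ± 3.3 in BMP4. Gas1 fell by 1.75 in bFGF/BMP4 (SE 0.16, limma adjusted p = 1.4e-05) and was 1.10 higher in BMP4 than in bFGF/BMP4 (SE 0.16, adjusted p = 7.7e-04), whereas its difference of -0.65 between BMP4 and bFGF/EGF was under 2-fold. Set side by side within each library, a comparison chosen after the values were seen and not tested, Boc made up 1.51% to 1.90% of the summed FPKM of Boc, Cdon and Gas1 in bFGF/EGF. Its share was 22.3% to 27.3% in bFGF/BMP4 and 17.8% to 20.3% in BMP4. The sum itself was 70.8 ± 9.1, 43.5 ± 4.3 and 64.1 ± 5.4 FPKM (SD, n = 3).

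Smo, the transmembrane protein that carries the signal across the membrane (ENSMUSG00000001761, chr6:29735407-29762532, plus strand, GRCm39), was at 16.9, 17.9 and 14.3 FPKM in bFGF/EGF, 23.8, 25.6 and 27.3 in bFGF/BMP4, and 33.4, 28.2 and 31.8 in BMP4. The groups lay apart in the order bFGF/EGF, bFGF/BMP4, BMP4. Its differences from bFGF/EGF were 0.64 (SE 0.12, limma adjusted p = 0.0015) and 0.93 (SE 0.12, adjusted p = 1.2e-04), neither reaching 2-fold, and BMP4 differed from bFGF/BMP4 by 0.28 (95% interval 0.01 to 0.55, adjusted p = 0.14). The ratio of Ptch1 to Smo within a library was 0.702 to 0.764 in bFGF/EGF, 0.691 to 0.861 in bFGF/BMP4 and 0.256 to 0.328 in BMP4, a comparison also chosen after the values were seen.

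Sufu, which holds Gli proteins in the cytoplasm (ENSMUSG00000025231, chr19:46385324-46477243, plus strand, GRCm39), was at 7.67, 8.94 and 7.13 FPKM in bFGF/EGF, 8.42, 6.77 and 6.50 in bFGF/BMP4, and 5.45, 4.25 and 5.12 in BMP4. All BMP4 libraries were below all others, and the other 2 groups overlapped. The differences stayed under 2-fold, at -0.67 against bFGF/EGF (SE 0.15, limma adjusted p = 0.0041) and -0.54 against bFGF/BMP4 (SE 0.15, adjusted p = 0.032) for BMP4, and -0.13 (SE 0.15, adjusted p = 0.51) for bFGF/BMP4 against bFGF/EGF.

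Among the Gli factors, Gli3, the main repressor of the family, was called in all 3 comparisons. Gli3 (ENSMUSG00000021318, chr13:15637809-15904611, plus strand, GRCm39) was at 0.865, 0.837 and 0.673 FPKM in bFGF/EGF, 6.71, 7.14 and 6.66 in bFGF/BMP4, and 1.87, 1.50 and 2.41 in BMP4. The groups did not overlap, and bFGF/BMP4 stood well above both others. Gli3 rose by 2.97 in bFGF/BMP4 (SE 0.19, limma adjusted p = 1.8e-06) and by 1.17 in BMP4 (SE 0.19, adjusted p = 5.9e-04). Compared with bFGF/BMP4, it fell in BMP4 by 1.80 (SE 0.19, adjusted p = 1.4e-04). The rise in BMP4 was near the fold threshold and was 0.88 after quantile normalization and 0.70 with a pseudocount of 1.

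Gli2, which acts mainly as an activator (ENSMUSG00000048402, chr1:118761858-118982598, minus strand, GRCm39), was at 0.599, 0.718 and 0.354 FPKM in bFGF/EGF, 1.21, 1.36 and 0.782 in bFGF/BMP4, and 0.753, 0.881 and 1.05 in BMP4, from 43 to 143 fragments a library. Both BMP4-containing groups were above bFGF/EGF and overlapped with each other. Gli2 passed no test at 2-fold: its differences were 0.90 (SE 0.30, limma adjusted p = 0.032) in bFGF/BMP4 and 0.63 (SE 0.30, adjusted p = 0.10) in BMP4 against bFGF/EGF, and -0.27 (95% interval -0.94 to 0.40, adjusted p = 0.60) between the BMP4-containing groups. Without replicate 2 of bFGF/EGF or replicate 3 of bFGF/BMP4, the first of these became 1.08 or 1.12 and passed. Each of the other 4 omissions took it to between 0.65 and 0.97 with an adjusted p of 0.055 to 0.11, as did quantile normalization (0.67, adjusted p = 0.11). The adjusted p was also above the threshold with no filter on low values (0.062) and in a fit of only the 2 groups compared (0.070).

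Gli1, a target and amplifier of the pathway (ENSMUSG00000025407, chr10:127165751-127177865, minus strand, GRCm39), was barely detected. Its libraries held 0, 0 and 1 fragment in bFGF/EGF, 3, 4 and 1 in bFGF/BMP4, and 0, 3 and 6 in BMP4, so that its highest value was 0.0728 FPKM. At this depth no difference in Gli1 was tested and no fold is given. Summed over a group's libraries, they came to 1, 8 and 9 fragments. Within each library, Gli3 made up 53.8% to 64.8% of the summed Gli1, Gli2 and Gli3 FPKM in bFGF/EGF, 83.5% to 89.3% in bFGF/BMP4 and 62.0% to 71.3% in BMP4. This share was likewise picked with the values in view and was not tested.

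**Figure D2:**
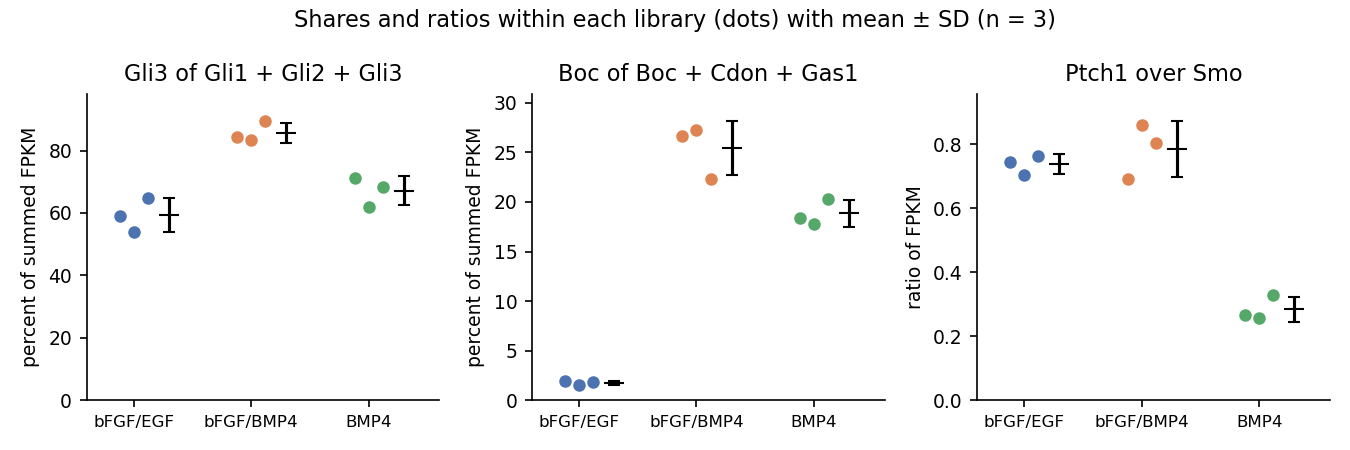
Shares (percent) and ratios computed within each library (vertical axes), with a dot for each library and the mean ± SD (n = 3) of the 3 media. Gli3's share of Gli FPKM was at least 83.5% in bFGF/BMP4 and at most 71.3% elsewhere, Boc's share of coreceptor FPKM was at most 1.90% in bFGF/EGF, and the Ptch1 to Smo ratio was at most 0.328 in BMP4.

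**Figure D3:**
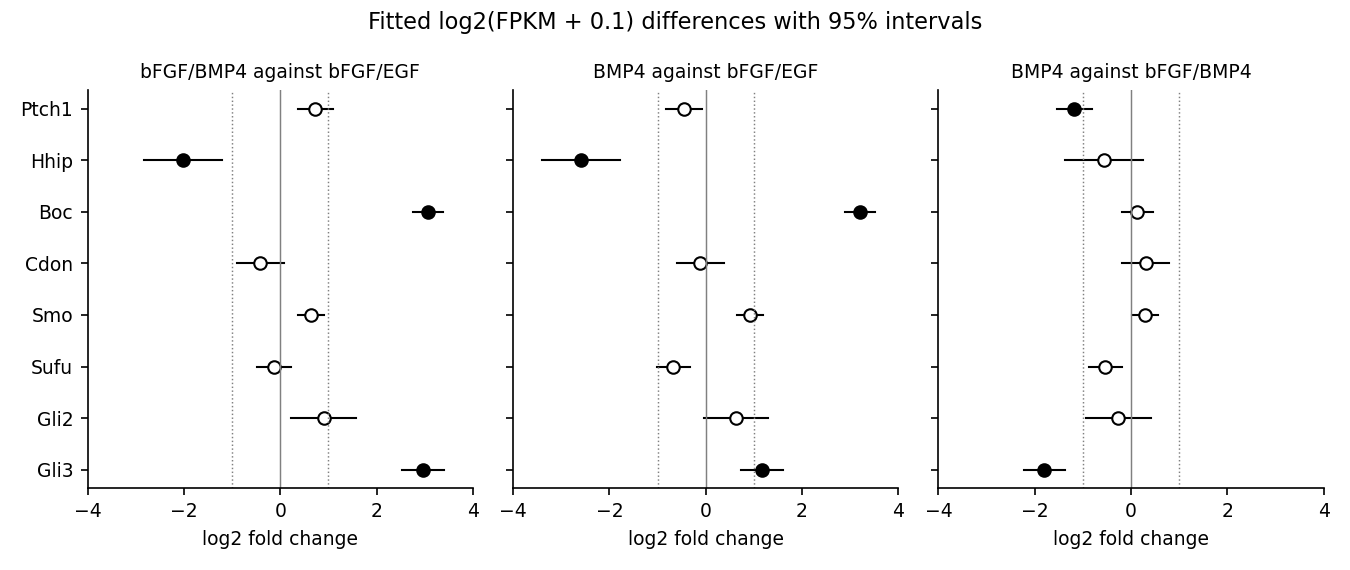
Log2 fold change on the log2(FPKM + 0.1) scale (horizontal axis) of the 8 tested genes in the 3 comparisons, with 95% intervals from limma. Boc and Gli3 lie above 1 in both comparisons with bFGF/EGF, Hhip lies below -1 in both, and Gli3 and Ptch1 lie below -1 in BMP4 against bFGF/BMP4.

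The exons of the 9 genes share at most 5.28% of their bases with another annotated gene, and the counting's strand setting is not given in the sources used here. For Gli3, 513 exon bases (5.13%) lie opposite Gm6556, whose highest value was 1.87 FPKM, and for Smo, 365 bases (4.13%) lie in the same-strand pseudogene Gm13717, at most 3.39 FPKM.

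Among the ligands, Shh, which gives the pathway its name, was at 1.74, 2.31 and 2.50 FPKM in bFGF/EGF, 0.0437, 0 and 0 in bFGF/BMP4, and 0.324, 0.282 and 0.213 in BMP4. The groups did not overlap, and bFGF/BMP4 held no more than 2 fragments a library. Shh was therefore at least 33.6-fold lower in bFGF/BMP4 than in bFGF/EGF, taking 3 fragments a library as the limit of detection, and at least 4.21-fold higher in BMP4 than in bFGF/BMP4 (limma adjusted p = 0.0026). In BMP4 it fell by 2.61 relative to bFGF/EGF (SE 0.30, adjusted p = 5.2e-05).

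Dhh, the ligand known from Schwann cells and the gonads, was at 2.66, 5.05 and 4.48 FPKM in bFGF/EGF, 0.0707, 0.133 and 0.0927 in bFGF/BMP4, and 0.112, 0.0281 and 0.110 in BMP4. It fell by 4.35 in bFGF/BMP4 (SE 0.35, limma adjusted p = 6.3e-06) and in BMP4 (-4.49, SE 0.35, adjusted p = 3.3e-06), and the BMP4-containing groups overlapped. Ihh had 1 to 8 fragments in every library and was not tested.

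Around these genes, 6 of 9 genes for ligand production and release were tested: 1 rose and 2 fell in each comparison with bFGF/EGF, the falls being Shh and Dhh. In BMP4 against bFGF/BMP4, Shh and Scube3 were higher. The calls were 3, 3 and 2 of 6, beside 30.6%, 36.6% and 13.5% of all tested genes. The gene that rose in both was Scube3, a secreted protein of the family that helps release ligand, named after its values were seen. It was at 0.189 ± 0.037, 0.894 ± 0.38 and 1.86 ± 0.27 FPKM (SD, n = 3) in bFGF/EGF, bFGF/BMP4 and BMP4. Of 5 other receptor genes, 4 were tested, with 2 higher and 1 lower in bFGF/BMP4, 2 higher in BMP4, and 2 higher and 2 lower in BMP4 against bFGF/BMP4, or 3, 2 and 4 of 4 beside those shares.

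The receptor list held the glypicans Gpc5 and Gpc3, cell-surface proteoglycans that bind hedgehog ligands. Gpc5 was at 0.785 ± 0.15, 28.2 ± 1.5 and 3.12 ± 1.1 FPKM (SD, n = 3) and rose by 5.01 in bFGF/BMP4 (SE 0.25, limma adjusted p = 3.4e-07) and by 1.81 in BMP4 (SE 0.25, adjusted p = 1.7e-04). Gpc3 was at 0.284 ± 0.12, 5.74 ± 1.8 and 0.486 ± 0.14 FPKM, rising by 3.93 in bFGF/BMP4 (SE 0.35, adjusted p = 1.2e-05). Relative to bFGF/BMP4, both fell in BMP4, by 3.20 and 3.30. Lrp2, an endocytic receptor also named after its values were seen, was 1.69 and 2.68 higher in BMP4 than in bFGF/EGF and bFGF/BMP4, at 1.28 ± 0.35 FPKM in BMP4.

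Among 27 genes acting between the membrane and Gli, 1 rose and 3 fell in bFGF/BMP4, 2 rose and 2 fell in BMP4, and 2 were higher and 1 lower in BMP4 than in bFGF/BMP4. These were 4, 4 and 3 calls of 27, beside 30.6%, 36.6% and 13.5% of all tested genes. The falls in bFGF/BMP4 were the protein kinase A subunit Prkar2b (-1.91) and the arrestins Arrb1 (-1.86) and Arrb2 (-1.05). In BMP4, Gpr161, a ciliary receptor that restrains the pathway, rose by 1.26, the kinase Stk36 rose by 1.13 and Arrb2 fell by 1.11. Between the BMP4-containing media, Grk3 was lower in BMP4 (-1.72), whereas Prkar2b (1.28) and Efcab7 (1.18), which tethers a Smo-binding complex at the cilium base, were higher. The other calls, named after their values were seen, were the kinase subunit Prkar1b, up by 1.00 in bFGF/BMP4, and the adenylyl cyclase Adcy5 (-1.05) in BMP4.

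Among 23 genes for Gli processing and corepression, 1 rose and 2 fell in bFGF/BMP4, 1 rose and 3 fell in BMP4, and 1 was higher in BMP4 than in bFGF/BMP4. Thus 3, 4 and 1 of 23 were called, beside the same 30.6%, 36.6% and 13.5% of all genes. The corepressor Ski rose by 1.30 in bFGF/BMP4 and 1.59 in BMP4. The casein kinase Csnk1e fell by 1.38 and 1.62 and the histone deacetylase Hdac2 fell by 1.25 and 1.42. The other fall in BMP4 was that of Csnk1g2 (-1.03), named after its value was seen. Csnk1a1, a kinase that takes part in phosphorylating Gli3 before its cleavage, was 1.09 higher in BMP4 than in bFGF/BMP4.

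Of 22 genes used as hedgehog targets, Gli1, Ptch1 and Hhip included, 15 were tested. In bFGF/BMP4 1 rose and 7 fell, in BMP4 6 fell and none rose, and between these media 3 were higher and 7 lower in BMP4. The calls were 8, 6 and 10 of 15, beside 30.6%, 36.6% and 13.5% of all tested genes. With directions pooled, the count in BMP4 against bFGF/EGF was near that background. By direction, its 6 calls were all falls, beside 15.4% of all genes lower and 21.3% higher. The shares of all genes lower and higher were 14.1% and 16.5% in bFGF/BMP4 against bFGF/EGF. They were 5.14% and 8.41% in BMP4 against bFGF/BMP4. The list's median log2 fold changes were -0.71, -0.55 and -0.57, beside 0.06, 0.10 and 0.00 for all tested genes. The last of the list's medians was the value of Hhip itself, which was not called in that comparison. Members are also among the list's calls: Hhip in both comparisons with bFGF/EGF, and Ptch1 between the BMP4-containing media. The falls were led by the G1 cyclin Ccnd1 (-5.88 and -7.44), with Nkx2-2 (-2.31) and Sfrp1 (-2.16) next in bFGF/BMP4 and Olig2 (-4.25) and Ccne1 (-3.95) in BMP4. Between the BMP4-containing media, Olig2 (-3.03), Ccnd2 (-2.59) and Ccne1 (-1.83) fell most in BMP4. Named after their values were seen, Ccnd2 (1.72) was the target that rose in bFGF/BMP4, and Sfrp1 (1.61), Nkx6-2 (1.43) and Mycn (1.30) were those higher in BMP4 than in bFGF/BMP4. Several of these genes also serve the cell cycle or the oligodendrocyte lineage, and markers of both moved with the media. The summed FPKM of 6 markers of dividing cells was 156 to 323 in bFGF/EGF, 37.3 to 65.1 in bFGF/BMP4 and 9.65 to 10.4 in BMP4, and all 6 fell in each comparison. That of the oligodendrocyte lineage list was 1119 to 1610, 1124 to 1478 and 222 to 393, with Sox10 at 0 in both BMP4-containing media.

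Genes of the primary cilium, in which Smo and Gli proteins act, were tested as a list of 36. None was called in bFGF/BMP4 against bFGF/EGF, beside 30.6% of all tested genes. By the adjusted p alone (at most 0.05) 6 of the 36 stood higher and 6 lower there, beside 48.6% of all genes in either direction. Both counts were below those shares. In BMP4 against bFGF/EGF 9 rose and 1 fell, and in BMP4 against bFGF/BMP4 5 were higher and none lower, with medians of 0.57 and 0.46. The 10 calls of 36 in the first were below the 36.6% of all tested genes called. The 5 of 36 in the second were near the 13.5% called. With directions pooled in this way, neither count sets the cilium genes apart. The calls were mostly rises, beside 21.3% of all genes higher and 15.4% lower in the first and 8.41% and 5.14% in the second. By the adjusted p alone, 19 cilium genes were higher and 3 lower in the first, and 15 higher and 0 lower in the second. That measure put 5991 of all 20207 genes higher and 5105 lower in the first, and 2474 and 1797 in the second. The transport genes Wdr19 (1.39), Ift22 (1.35) and Dync2li1 (1.34) led the first, and Tctn2 (1.69), Dync2li1 (1.49) and Ift81 (1.29) the second, and the fall in BMP4 was that of the centriolar gene Cep164 (-1.28), named after its value was seen. The summed FPKM of the 5 ependymal markers found was 6.70 to 11.3 in bFGF/EGF, 10.7 to 11.4 in bFGF/BMP4 and 55.3 to 65.1 in BMP4. Most of it was Foxj1, at 8.26 ± 2.3, 10.0 ± 0.50 and 55.1 ± 5.3 FPKM (SD, n = 3). In BMP4, Rsph1 was at 2.72 ± 0.93, Ccdc153 at 0.653 ± 0.17 and Dnah5 at 0.268 ± 0.10 FPKM, and Tmem212 was at 0 in all libraries.

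**Figure D4:**
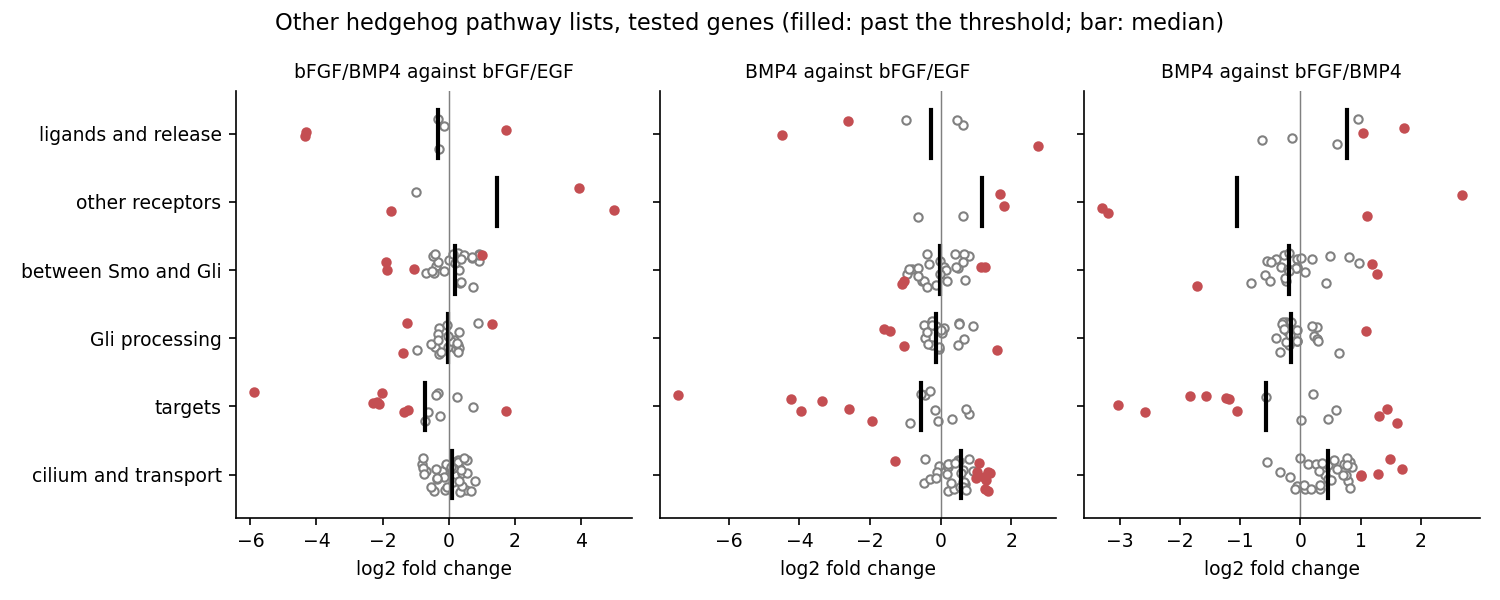
Log2 fold changes on the log2(FPKM + 0.1) scale (horizontal axis) of the tested genes of 6 other lists of the pathway in the 3 comparisons, each panel with its own scale; each dot is a gene, filled where it passed the threshold, and a bar marks the list's median. The target list includes the members Ptch1 and Hhip. It lies to the left in all 3 comparisons, with medians of -0.71, -0.55 and -0.57, the last being the value of Hhip. The cilium list lies to the right in both comparisons of BMP4, with medians of 0.57 and 0.46.

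Other cell type lists also moved with the media. The summed FPKM of 6 astrocyte markers was 178 to 243 in bFGF/EGF, 651 to 751 in bFGF/BMP4 and 1510 to 1535 in BMP4. Against bFGF/EGF, 5 of the 6 rose in each BMP4-containing medium, and Aldh1l1 fell (135 ± 25, 24.2 ± 0.61 and 58.1 ± 6.7 FPKM, SD, n = 3). The sum of 6 neuronal markers was 72.4 to 88.1, 47.4 to 53.2 and 142 to 213, higher in BMP4 mainly through Tubb3 (20.3 ± 4.0, 17.0 ± 3.3 and 145 ± 40 FPKM). The means of Dcx and Snap25 were also highest in BMP4. Map2 was at 56.2 ± 11, 30.5 ± 2.2 and 34.1 ± 5.3 FPKM, and Rbfox3 was lower in BMP4 than in bFGF/BMP4 (0.522 ± 0.20 and 1.57 ± 0.24 FPKM). Of the 5 neuronal markers tested, 2 were called higher and 0 lower in BMP4 against bFGF/EGF. Against bFGF/BMP4, 3 were called higher in BMP4 and 1 lower. Vascular and fibroblast markers summed to 0.247 to 0.411, 1.84 to 2.63 and 4.17 to 5.70, with Cldn5 at 0, and microglial markers stayed below 1, with C1qa at 0. The part of any of these lists in the values of the hedgehog genes was not tested.

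The genes whose log2(FPKM + 0.1) ran closest to each member over the 9 libraries were found among 11212 protein-coding genes that averaged 1 FPKM or more (11213 for Gli1, Gli2 and Hhip), as a description by Pearson's r across libraries that share their media. They were Zswim5 (r = 0.987) and Kif3c (0.983) for Ptch1, Pdxdc1 (0.992) and Aldh5a1 (0.991) for Smo, and Hif1an (0.993) and Rabl6 (0.978) for Sufu. Pde11a (0.994) and Frmpd1 (0.991) were nearest to Gli3, Pias3 (0.928) and Fgfr3 (0.913) to Gli2, and Zfp85 (0.900) and Ppfibp2 (0.851) to Gli1. For Boc they were Pank1 (0.997) and Ldb2 (0.997), for Hhip St8sia1 (0.992) and Csnk2a2 (0.990), and for Cdon Lrp8 (0.882) and Sh3d19 (0.868).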

How the data were processed

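The authors deposited 1 table of FPKM values per gene and library. Per the labels and the submitters' processing notes, Illumina reads were trimmed with fastp 0.19.7, aligned to mm39 with HISAT2 2.0.5 and counted with featureCounts 1.5.0-p3; the annotation release and strand setting are not given in the sources used here. From the deposited FPKM, log2(FPKM + 0.1) was, for the 20207 genes averaging 0.1 FPKM or more, fitted with limma 3.58.1 (R 4.3.3, trend) over all 9 libraries, with 3 contrasts of group means and Benjamini-Hochberg adjustment over all genes tested. The authors' methods used DESeq2 on counts. Their counts, given with the paper, were not used here, and FPKM values are not suited to that test.

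Fragment numbers were rebuilt from the whole steps of the FPKM values, for 30856 of 30860 genes above 0. Where no library of a group held over 3 fragments of a gene, it counted as not detected there and its fold change is a bound. Depth of 15892849 to 17222564 fragments limits genes below about 0.1 FPKM. Positions are from GENCODE vM39 (GRCm39) and promoters from RefSeq (GRCm38.p6).

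The named genes were the 9 members, the ligands, up to 3 called genes with the largest change and a mean FPKM of at least 1 per list and comparison, and 2 nearest genes per member. The members and lists were chosen with earlier results of these data known. Alternatives were other pseudocounts, filters, normalization and fold thresholds, limma-voom on rebuilt fragments, a replicate block and leaving out each library.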

Additional observations from a re-analysis of the deposited data

How the results depend on the processing

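The numbers of hedgehog genes called (3, 3 and 2 for bFGF/BMP4 against bFGF/EGF, BMP4 against bFGF/EGF and BMP4 against bFGF/BMP4) were 6, 6 and 3 with no fold threshold. With a pseudocount of 1, BMP4 against bFGF/EGF gave 1, since Gli3 (0.70) and Hhip (-0.70) no longer reached 2-fold. Leaving out each library in turn gave 3 to 4, 3 to 3 and 2 to 2 genes; the fourth was Gli2, without replicate 2 of bFGF/EGF or replicate 3 of bFGF/BMP4. Cdon in BMP4 against bFGF/EGF, which passed no test, ran from -0.27 to 0.095 over the same omissions around its -0.11, turning positive without BMP4 replicate 2. Of 402 values of the tested members under the alternatives, 388 kept direction and side of the threshold, 9 moved to passing and 4 lost it. Of these 9, only those of Gli2 in the omissions named above passed with the fold threshold kept. The rest came from dropping that threshold. The replicate block, the fit of only the 2 groups compared and the setting with no filter on low values leave the log2 fold change unchanged. Direction could not change in them. Fitting the replicate number as a block gave 3, 3 and 2 calls, as in the main fit. The adjusted p of Ptch1 in BMP4 against bFGF/EGF no longer passed in that fit (limma adjusted p = 0.061). Deviations from the group mean correlated at -0.084 to 0.125 between same-numbered libraries of different groups. Between libraries of other numbers the range was -0.154 to 0.081. No pairing by number showed, but 3 libraries a group cannot exclude a shared isolation. Hhip's differences from bFGF/EGF ranged from -3.07 to -0.61 in bFGF/BMP4 and from -4.69 to -0.70 in BMP4, the lower ends from limma-voom on rebuilt fragments and the upper from the pseudocount of 1. Quantile normalization moved the median of all genes by -0.13 in BMP4 against bFGF/EGF. A filter at a mean FPKM of 1 removed Hhip and Gli2 from testing, and depth kept Gli1 and Ihh out of it.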
